A study of Hordeum vulgare with 6 samples.

Results

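The H3K27me3 regions of barley chromosome 7H are stretches where all 3 replicate peak lists of an endosperm ChIP-seq study had a peak. Overlapping or adjoining peaks of the 3 lists were joined, and the members were selected on peak presence: each list had to contribute at least 1 peak to the joined region. This gave 562 regions on 7H, out of 3359 regions over all sequence and 3237 on the 7 chromosomes. The mark was measured by chromatin immunoprecipitation and sequencing in hand-dissected endosperm of the spring barley cultivar Morex at 16 days after pollination. All 3 ChIP libraries share this genotype, tissue and stage, and no value below comes from the 3 input libraries of the series, which were not analysed here. The chromatin was sheared and pooled before precipitation, so the spread between replicates may be technical. The lists hold neither read counts nor expression values, so the depth behind each list is unknown and the tissue label cannot be checked against marker genes.

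H3K27me3 is a histone mark set by Polycomb repressive complex 2 and is found mainly over genes that are kept silent in a tissue. In plants it can lie over a single gene or spread over neighbouring genes as a broad domain. The endosperm is the nutritive, starch-storing tissue of the grain, and in it the Polycomb machinery is known to act on imprinted genes and on genes of the growth programme. Barley chromosomes are large, with genes and recombination concentrated towards both ends and a long low-recombining, repeat-rich stretch in between.

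The 562 regions summed to 34.0 Mb, or 5.38% of the 633 Mb up to the last peak on 7H. The chromosome has 15.1% of the combined chromosome length, 17.4% of the regions and 21.4% of their summed length. Coverage by peaks on 7H was 4.91%, 5.31% and 5.37% in replicates 1, 2 and 3, which is 5.19% ± 0.25 (SD, n = 3). The next chromosome, 1H, had 3.70%, 4.06% and 4.24% in the same order, and the lowest, 4H, had 1.90%, 2.26% and 2.29%. No value of 7H overlapped a value of another chromosome. The regions were built from these same peaks and the choice of 7H used these values, so coverage is described and not tested.

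The higher coverage of 7H lay mostly in wide domains. Regions of 80 kb or more covered 3.81% of 7H, against 2.22% of the 6 other chromosomes together, while narrower regions covered 1.57% against 1.30%. Of the gap of 1.86 percentage points between 7H and the others, 85.6% was in the wide regions. Wide regions already held 63.1% of the region length on the others, and 70.9% on 7H. There were 98 wide regions among the 562 (17.4%), beside 13.0% of the 2675 regions on the other chromosomes. Counted by length, 7H had 15.5 wide regions per 100 Mb, and the others ranged from 5.73 on 4H to 12.1 on 6H. The density of narrow regions was closer to that of other chromosomes, though again highest on 7H. It was 73.4 per 100 Mb on 7H, and the others ranged from 58.2 on 4H to 72.4 on 1H. Without its 20 widest regions 7H still had 3.47% of its length in regions. The highest of the other chromosomes, 6H, had 2.43% without its own 20 widest. A fixed number is a smaller part of the 98 wide regions of 7H than of the 68 on 6H, and wide regions remained on both.

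**Figure D1:**
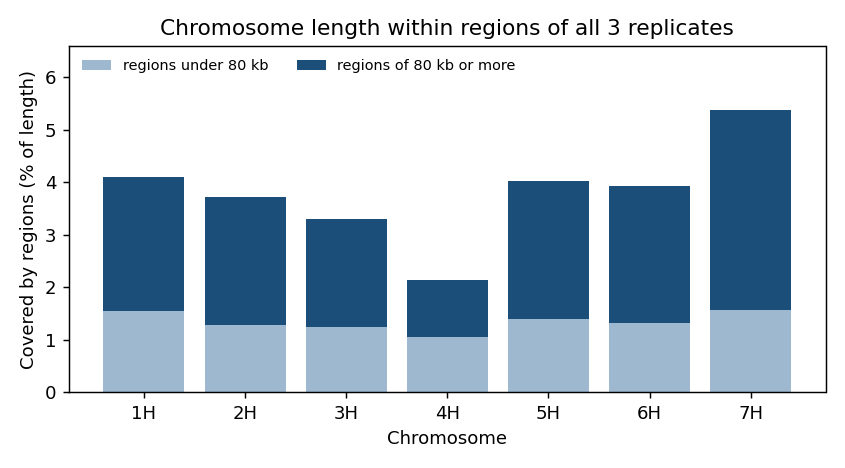
Bars give the percentage of each chromosome's length (y axis) that lies in regions found in all 3 replicates, split into regions under 80 kb (light) and of 80 kb or more (dark). The dark part of 7H reaches 3.81% of the length and the light part 1.57%, while 4H has 1.09% and 1.05%.

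Along 7H the mark was concentrated at both ends, with a broad zone of low coverage between them. The chromosome was cut into 64 windows of 10 Mb from its first base, of which the last holds only 2.54 Mb. Averaged over the replicates, the median window was covered to 2.19%, 9 windows reached 10% or more, and 10 stayed under 1%. On the other chromosomes 8.33% of 360 windows reached 10%, against 14.1% on 7H, and 28.9% were under 1%, against 15.6%. These counts include the shorter last window of every chromosome. Each of those windows reached 10%, such as 74.0% over 0.33 Mb on 4H. The shares were not recomputed for full windows alone. No 10 Mb window of 7H was without a region. The replicates ranked the 64 windows alike, with Spearman's rho across windows from 0.931 to 0.960. Windows are neighbours on 1 chromosome and are not independent, so this is a description.

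**Figure D2:**
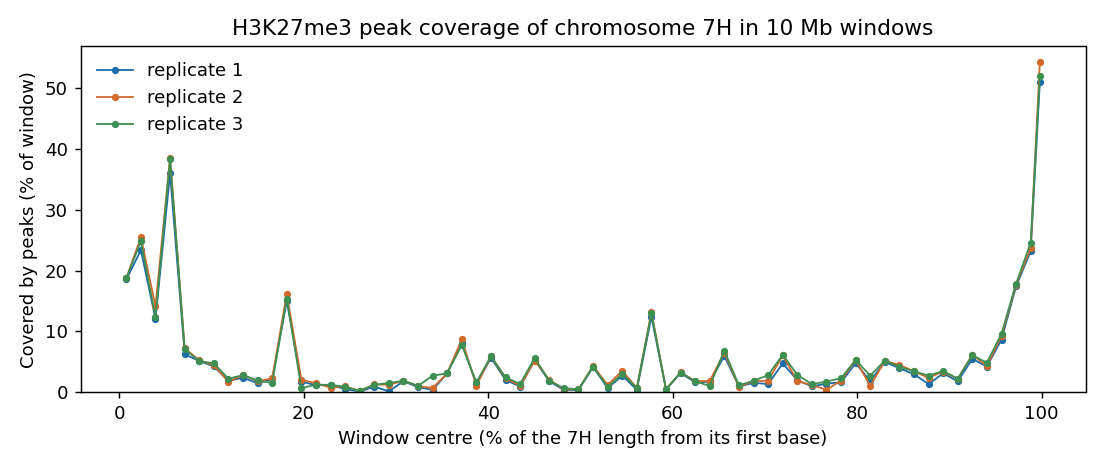
Each point is a 10 Mb window of 7H, placed by its centre as a percentage of the chromosome length (x axis), with the percentage of the window covered by peaks (y axis) in each of the 3 replicates. The 3 lines run together, are high at both ends, and show separate interior maxima of 15.5% and 12.9% on average.

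The highest full window ran from 30 to 40 Mb and was not at the tip of the chromosome. Its coverage was 36.0%, 38.5% and 38.4% in replicates 1, 2 and 3, or 37.6% ± 1.45 (SD, n = 3). It was also higher than every full window of the other chromosomes, of which the first window of 6H came next with 33.4%. The windows from 0 to 10, 10 to 20 and 20 to 30 Mb had 18.7% ± 0.13, 24.5% ± 1.08 and 12.9% ± 1.13 (SD, n = 3 each). Coverage thus went up, down and up again over the first 40 Mb, and each step was larger than the SD of either window. It then fell to 6.84% ± 0.52 from 40 to 50 Mb.

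A dense run of regions filled much of that window. Between 36101252 and 38570849 (1-based, positions as in the lists, whose genome build is not named), 11 regions followed each other with gaps of 5.67 to 83.4 kb. Of these 2.47 Mb, peaks covered 85.8%, 87.1% and 88.6% in replicates 1, 2 and 3. Counted by regions instead of peaks, its window was covered to 40.4%, and the run held 55.2% of that region length. Without the run the window would have 18.1%, close to the 19.1% of the first window of the chromosome by the same measure. The run was the longest on 7H with gaps under 100 kb, and the longest runs of the other chromosomes had between 4 and 6 regions.

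The members of this run were unlike each other in strength. Its widest region, of 1170 kb from 36189753 to 37359987, had a fold of 12.4, 13.9 and 13.3 in replicates 1, 2 and 3. The fold is the authors' value for a peak, read here as the ChIP signal relative to the peak caller's background, and the highest peak of a replicate stands for the region. The next widest, of 567 kb (37884139 to 38451616), showed 12.3, 10.4 and 11.9. The lowest value of the first, 12.4, and the highest of the second, 12.3, nearly met without overlapping. Between them lay 7 smaller regions, 6 of them with a mean fold from 1.97 to 2.69 and the other, of 232 kb, with 6.12 ± 0.54 (SD, n = 3).

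At the far end, coverage climbed towards the tip. It was 9.18% ± 0.48 from 600 to 610 Mb, 17.7% ± 0.23 from 610 to 620 Mb and 23.8% ± 0.70 from 620 to 630 Mb (SD, n = 3 each). The last 2.54 Mb, a shorter window that should not be set against the full ones, was covered to 50.9%, 54.2% and 51.99% in the 3 replicates. It held 10 regions, 5 of them of 80 kb or more, and the last ended at 632539037, the last peak position, which also stands for the length of the chromosome here. The widest of them, of 553 kb from 631419071 to 631972051, had a fold of 28.3, 32.6 and 27.7. At the opposite tip the first region ran from 1160 to 69874.

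Both ends of 7H were well covered. In the first 10% of the length, coverage was 16.1%, 17.4% and 16.9% in replicates 1 to 3, or 16.8% ± 0.65 (SD, n = 3). In the last 10% it was 11.7%, 12.2% and 12.4%, or 12.1% ± 0.39 (SD, n = 3). On 7H the lower-covered end thus had 12.1%, whereas on the 6 other chromosomes the lower-covered end had between 4.04% on 4H and 6.10% on 5H. The first 10% of 1H was higher than that of 7H, with 18.3% ± 0.51, and the last 10% of 3H was about as high, with 12.1% ± 0.55 (SD, n = 3 each). The 80% in between had 2.88% ± 0.19 on 7H, below the 3.07% ± 0.22 of 5H (SD, n = 3 each). 5H was ahead in each replicate, by a mean difference no larger than the SD of either chromosome.

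**Figure D3:**
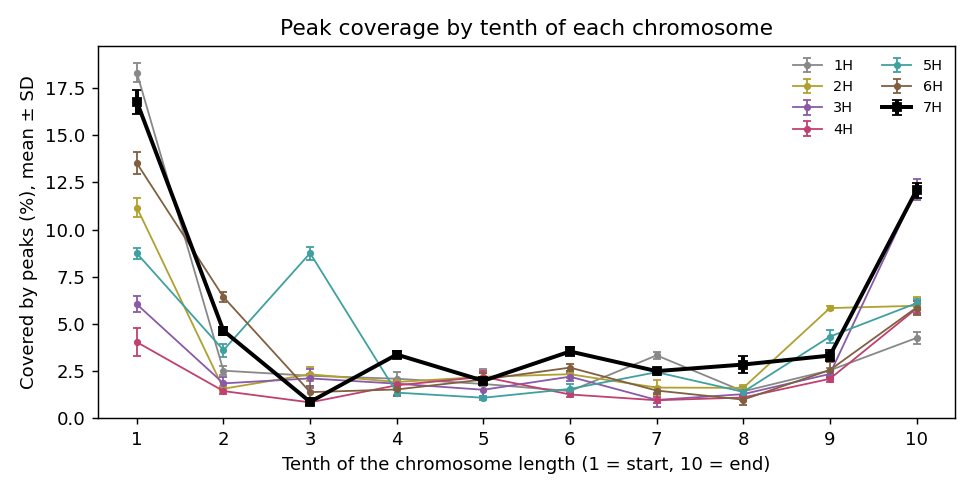
Points give the mean percentage covered by peaks (y axis) in each 10% section of the chromosome length (x axis, from 1 at the start to 10 at the end), and bars the SD over 3 replicates. The black line of 7H is high in both the first (16.8%) and the last section (12.1%), and lowest in the third (0.87%).

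The numbers of regions were even between the first and the last 50% of the length, with 281 regions in each. Neither the lists nor the labels give the position of the centromere, so these parts stand in for the chromosome arms. Coverage was slightly uneven. The lower-coordinate part had 5.25%, 5.70% and 5.64% in replicates 1 to 3, and the higher-coordinate part 4.57%, 4.91% and 5.09%. The difference was 0.67 ± 0.12 percentage points (SD, n = 3) and had the same direction in each replicate. Wide regions numbered 48 and 50. The median fold of the regions was 2.93 ± 0.15 in the lower-coordinate part and 2.89 ± 0.18 in the other (SD, n = 3 each), a difference within the spread.

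Of the other chromosomes, 4 differed more between these parts and 2 less. On 1H the lower-coordinate part was ahead by 2.80 ± 0.20 percentage points, on 6H by 2.27 ± 0.11 and on 5H by 1.55 ± 0.025 (SD, n = 3 each). On 3H the higher-coordinate part was ahead, with a difference of -1.12 ± 0.062. On 2H (0.36 ± 0.055) and 4H (-0.19 ± 0.12) the difference was smaller than on 7H (SD, n = 3 each). The value for 7H depended on the split point. With the split at 171 Mb, the middle of the least covered 100 Mb, the lower-coordinate part was ahead by 4.01 ± 0.24 percentage points (SD, n = 3). Without the widest region, which lies in the higher-coordinate part, the difference was 1.04.

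Regions near the ends were also closer together, wider and stronger than the rest. The outer 10% at both ends held 252 regions, or 44.8% of those on 7H and 56.3% of their length. They lay at 1.99 per Mb with a median width of 24.01 kb, against 0.61 per Mb and 14.1 kb in the 80% between. Their median fold was 3.30, 3.26 and 3.47 in replicates 1 to 3, against 2.65, 2.57 and 2.86. In each replicate the median of the outer regions was above that of the inner ones, and no value of one overlapped the other. The 6 other chromosomes together showed the same order, with median folds of 2.98 ± 0.11 and 2.60 ± 0.057 (SD, n = 3 each). Their outer 10% at both ends held 41.0% of their regions and 49.2% of the region length. The share of length was higher than on 7H on 1H (57.0%) and 3H (56.7%), and lower on the rest.

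Some windows owed most of their coverage to 1 region. In 8 of the 64 windows, 1 region held at least 80% of the region length, and in 26 at least 50%. One such window ran from 360 to 370 Mb, covered to 12.9% ± 0.42 (SD, n = 3), in which the widest region of the chromosome, of 1200 kb from 364841502 to 366041774, held 91.0% of the region length. Counted by regions instead of peaks, the window was covered to 13.2%, and would be at 1.19% without that region. The fold of that region was 64.4, 59.1 and 66.4 in replicates 1, 2 and 3, the second highest of 7H. The window from 110 to 120 Mb, the highest between the outer 10% at either end, was covered to 15.5% ± 0.57 (SD, n = 3) and held a region of 921 kb from 117995491 to 118916148, the third widest, with a fold of 5.37, 4.61 and 5.48. It also held a region of 358 kb from 111533464 to 111891045 with a fold of 27.9, 32.3 and 32.8. In the same window the widest region was thus not the strongest. The window from 230 to 240 Mb was covered to 8.17% ± 0.48 (SD, n = 3). Of its region length, 98.1% was a region of 797 kb from 232549388 to 233346501, with a fold of 19.5, 21.9 and 24.8.

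The least covered windows lay from 160 to 170 Mb, from 310 to 320 Mb and from 370 to 380 Mb. They were covered to 0.19% ± 0.059, 0.43% ± 0.075 and 0.47% ± 0.031 (SD, n = 3 each). The window from 370 to 380 Mb directly follows the one with the 1200 kb region. The third 10% section of the length, from 127 to 190 Mb, had only 23 regions, and its strongest, of 17.5 kb from 177328995 to 177346481, had a fold of 4.52, 4.29 and 4.22. In each of the other sections the strongest region had a mean fold of at least 15.1.

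**Figure D4:**
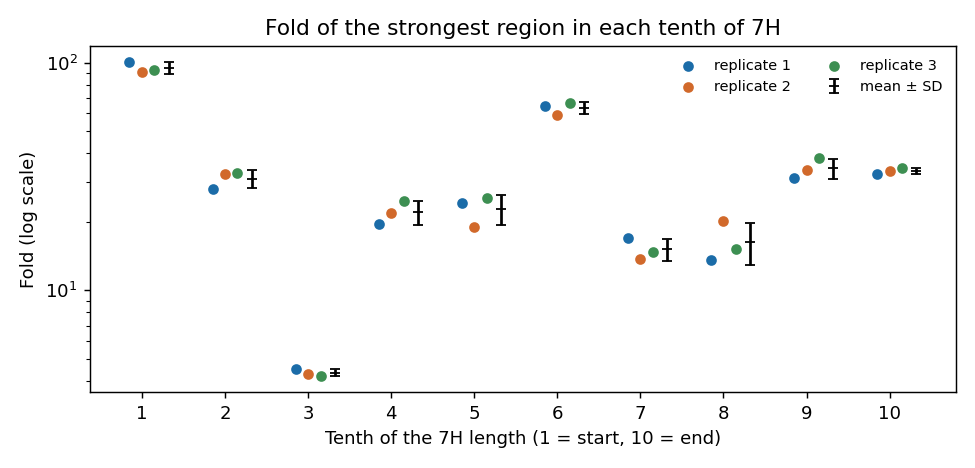
Points show the fold (y axis, log scale) of the strongest region in each 10% section of 7H (x axis) for the 3 replicates, with the mean ± SD beside them. The first and sixth sections hold the highest values, with means of 95.02 and 63.3, and the third the lowest, with 4.34.

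The distance between neighbouring regions had a median of 497 kb on 7H and medians from 548 kb on 6H to 856 kb on 4H. Of the 561 distances, 117 (20.9%) were under 100 kb, and on the other chromosomes this share was between 11.6% and 18.9%. The longest stretch with no region of all 3 replicates was 9.34 Mb, from 297036980 to 306377093, and it still held 2 peaks of replicate 1, 1 of replicate 2 and 1 of replicate 3. The next were 8.62 Mb from 404516375 to 413137518, with 0, 4 and 4 peaks in the 3 replicates, and 7.06 Mb from 158461513 to 165519816, with 1 peak in each. These stretches are therefore not free of peaks, and the peaks in them were not shared by all 3 lists. The longest such stretch on another chromosome was 17.2 Mb, on 3H.

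Widths on 7H ran from 2.04 kb to 1200 kb, with a median of 16.6 kb and an interquartile range of 9.63 to 53.5 kb. The medians of the other chromosomes were between 12.4 kb on 4H and 16.4 kb on 2H, so the typical region of 7H was hardly wider. The upper part of the distribution differed more: 50% of the region length lay in regions of at least 193 kb on 7H, against 146 kb on the other chromosomes together and 181 kb on 2H, the highest of them. By class, 16 regions were under 5 kb, 134 between 5 and 10 kb, 161 between 10 and 20 kb, 80 between 20 and 40 kb and 73 between 40 and 80 kb. Above that, 49 were between 80 and 160 kb, 25 between 160 and 320 kb, and 24 were wider. Those last 24 regions, 4.27% of the members, held 39.4% of the length.

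Wider regions had a higher fold. The median fold went from 2.28 ± 0.090 in regions of 5 to 10 kb to 4.33 ± 0.13 in regions of 40 to 80 kb (SD, n = 3 each). It was 6.25 ± 0.77 from 80 to 160 kb, 12.1 ± 1.27 from 160 to 320 kb and 18.6 ± 1.41 above 320 kb (SD, n = 3 each). Spearman's rho between width and fold across the 562 regions was 0.676, 0.706 and 0.661 in replicates 1 to 3, and the mean of the other chromosomes lay between 0.630 and 0.675. Width and fold come from the same peak calls and are not separate measures. From 80 to 160 kb the other chromosomes had a median fold of 6.97 ± 0.086, above that of 7H by less than the SD of 7H (SD, n = 3). In the 2 widest classes they had 7.38 ± 0.57 and 10.6 ± 0.34 (SD, n = 3 each), below 7H by more than the spread of the replicates. That spread does not measure how regions differ from each other, and 7H had only 25 and 24 regions in these classes.

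**Figure D5:**
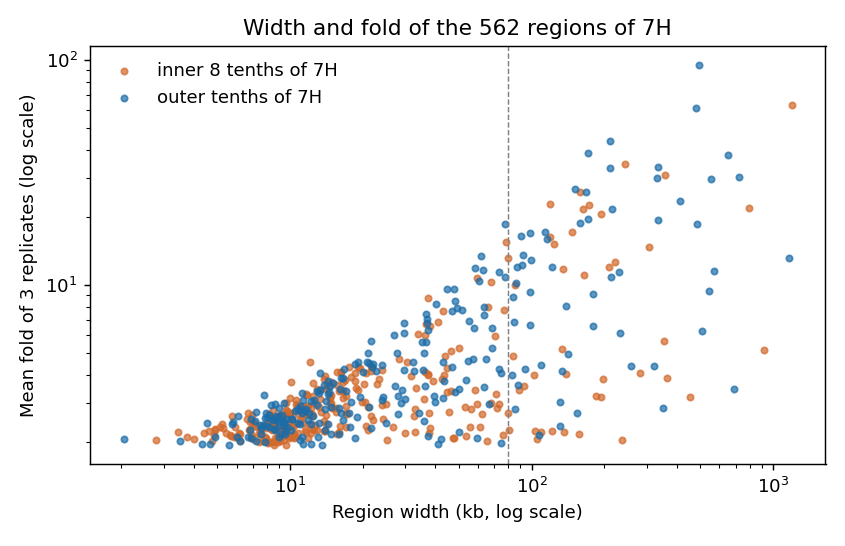
Each point is 1 of the 562 regions of 7H, by width (x axis, kb, log scale) and mean fold of the 3 replicates (y axis, log scale), coloured by its place in the outer 10% at either end or in the 80% between. Fold goes up with width, but above the dashed line at 80 kb it runs from 2.05 to 95.02, and wide regions of low fold are found in both zones.

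The wide regions were of mixed strength. Of the 98 wide regions, 50 had a mean fold of at least 10, of which 23 were at 20 or more, and 34 were under 5. On the other chromosomes 41.4% of 348 wide regions were at 10 or more and 38.2% were under 5, against 51.0% and 34.7% on 7H. Away from the ends the median fold of the wide regions was 5.32 ± 0.18 on 7H and 4.89 ± 0.13 on the others, and in the outer parts it was 11.3 ± 0.81 and 10.5 ± 0.30 (SD, n = 3 each). The strongest inner regions were counted as well. Away from the ends 7H had 41 wide regions, 9 of them with a mean fold of at least 20, and the 6 other chromosomes together had 152, of which 8 reached that level. In the outer parts 14 of 57 wide regions on 7H and 45 of 196 on the others reached it. Over all widths, 109 of the 562 regions (19.4%) had a mean fold of at least 5, beside 17.3% on the other chromosomes. This share was close to the background.

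The strongest region of 7H ran from 8258193 to 8751535, 493 kb wide, with a fold of 101, 91.3 and 92.6 in replicates 1 to 3, or 95.02 ± 5.36 (SD, n = 3). After the region of 1200 kb near the middle came one of 481 kb from 19611347 to 20092641, with 60.2, 62.1 and 61.9. The values of these 2 overlapped, so their order is not resolved. A region of 211 kb from 29094551 to 29305764 followed with 45.9, 39.5 and 45.9, and one of 171 kb from 39582799 to 39754021 with 35.0, 35.8 and 44.8. Then came 649 kb from 12456354 to 13105161 with 40.7, 36.5 and 36.3. The 2 strongest of the higher-coordinate part outside the middle were 244 kb from 521762671 to 522006981, with 31.1, 33.9 and 38.0, and 334 kb from 624670685 to 625004818, with 32.4, 33.6 and 34.4. From the fourth to the eighth in this ranking, the values of each region overlapped those of the next. Of these 8 regions, 5 lay within the first 40 Mb.

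The strongest regions of 3 further sections were of similar width. In the fifth section it spanned 263071357 to 263191165 with fold values of 24.3, 19.0 and 25.4. In the seventh it spanned 389613543 to 389737669 with 17.0, 13.7 and 14.7, and in the eighth 448375607 to 448495353 with 13.6, 20.1 and 15.2. The order of the replicates was different in each.

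Width without strength was seen at the far end. The sixth widest region, of 689 kb from 629177194 to 629866385, had a fold of only 3.57, 3.45 and 3.35 in the 3 replicates. The fifth widest, of 721 kb from 611960705 to 612682104, had 27.2, 28.9 and 34.3. Conversely, the strongest region under 80 kb, of 77.8 kb from 16983329 to 17061115, had 20.9, 18.1 and 17.2, and was singled out after its values were seen.

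Among the regions on the 7 chromosomes, 7H supplied 3 of the 10 strongest, 14 of the 50 strongest and 28 of the 100 strongest by mean fold. Among the widest it supplied 3 of 10, 15 of 50 and 26 of 100. Its share of the regions on the 7 chromosomes was 17.4%.

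In most regions the replicates gave like values, though the rule already required a peak of each. In 498 of the 562 regions (88.6%) each replicate had exactly 1 peak, and among the wide regions this was so in 69.4%. The most that a replicate had in 1 region was 10 peaks. The part of a region that all 3 replicates covered base by base had a median of 76.7% over all regions, 94.3% over wide and 72.9% over narrower ones. In 114 regions, 11 of them wide, under 50% of the width was shared by all 3. In 3 regions no base was shared by all 3. The highest fold of the replicates exceeded the lowest by a median factor of 1.23, and by at least 1.5 in 53 regions, 6 of them wide. It was greatest, at 2.02, in the region of 231 kb from 630643989 to 630874857, with 11.5, 7.49 and 15.1. The next were 18.5 kb from 568207711 to 568226208, with 2.58, 4.48 and 5.15, and 17.1 kb from 400403711 to 400420790, with 4.28, 2.23 and 3.14. No replicate was the high one in all 3 cases. Over all 562 regions the replicates were not even: the highest fold was in replicate 1 in 211, replicate 2 in 119 and replicate 3 in 232.

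The list left out of a selection on the other 2 did not select those regions. The choice of 7H had used all 3 lists, so the comparison of 7H with the other chromosomes is a description and no independent support. Of the 7H regions shared by replicates 2 and 3, 82.9% of 691 had a peak in replicate 1. Of those shared by 1 and 3, 94.8% of 599 had one in replicate 2, and of those shared by 1 and 2, 96.8% of 588 had one in replicate 3. On the other chromosomes the shares were 78.6%, 93.7% and 96.3%. The share was higher on 7H in 3 of 3 cases, by 1.96 ± 2.08 percentage points (SD, n = 3; two-sided p = 0.25 by an exact paired permutation test, which cannot give less with 3 pairs), so the difference was not shown to be larger than the spread. Of the wide regions, 94 of 96, 95 of 95 and 94 of 94 were found again. Of the narrower regions of 7H, 80.5%, 93.8% and 96.2% were. Wide regions were a larger share on 7H than on the others, and whether this bears on the difference was not tested. Replicate 1, with 690 peaks on 7H against 916 and 894, missed the most.

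The regions just outside the rule were weak and narrow. On 7H 168 merged regions had peaks in 2 replicates and 313 in 1, with summed lengths of 1.76 and 1.65 Mb. Of the 168, 118 lacked replicate 1. The weakest members, from 62588973 to 62594549, from 95365366 to 95374990 and from 347036450 to 347045058, had mean folds of 1.94 ± 0.20, 1.95 ± 0.15 and 1.95 ± 0.16 (SD, n = 3 each). The strongest region with 2 replicates, from 4395269 to 4399131, had a mean fold of 2.97, above the median of the members of 2.88. The widest with 2 replicates, of 119 kb from 217650595 to 217769437, had 1.86 in replicate 2 and 1.88 in replicate 3. The fold of members and non-members therefore overlapped in the range from 1.94 to 2.97.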

How the data were processed

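The data analysed were 3 peak lists, 1 per H3K27me3 ChIP library. Per the submitters' processing notes, bcl2fastq, HISAT2 2.1.0, GATK, MACS2 and deepTools were used. Their settings, the genome build and the use of the input libraries are not given in the sources used here. The deposited lists give, per peak, the authors' fold (a ratio over background), −log10 p-value, −log10 q-value and score (a whole number that follows the −log10 q). The lowest −log10 q was 1.03, 1.01 and 1.04, so weak peaks are included. In replicate 3, peaks are named with the library number 4; its label was followed. Without read numbers, depth is unknown and intervals for counting error could not be given, and a shallower library can miss weak regions.

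Starts were read as 0-based and are printed 1-based. The largest peak end stood for a chromosome's length. A region's fold in a replicate is the highest of its peaks. Merging and summaries ran in Python 3.11.15 (pandas 2.3.3, numpy 2.4.6; tests with scipy 1.17.1) and were tested on simulated lists. The members, lists and thresholds were chosen with earlier results of these data known, so values are descriptions. Named are the 8 strongest regions, the 6 widest, the 3 weakest, the strongest of each 10% section, the 3 whose replicates differ most, the 3 longest stretches with no region, and the 3 highest and 3 lowest windows. The strongest region under 80 kb, the dense run, the regions at the tips and the strongest and widest regions with 2 replicates were named after their values were seen. Alternatives were thresholds on q and fold, other merging, overlap and window choices, equal list lengths and leaving out each replicate. Genes and sequences are not reported, since the build of the positions is not named.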

Additional observations from a re-analysis of the deposited data

How the results depend on the processing

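In all, 11 summaries were recomputed under 78 alternatives, of which 33 moved the value. Moved means by more than the spread between replicates, the counting interval or, for numbers of regions, a factor of 1.5. The held-out comparison was judged by its sign only. The −log10 p, another unit, was set against the spread of the fold. The difference between the parts does not use merged regions, so admitting regions of 2 replicates could not move it. The lower-coordinate part stayed ahead with both stricter sets of peaks, with the other split and without the widest region. Stricter peaks moved most values. With a −log10 q of at least 5, 7H had 241 regions, a coverage of 4.36%, 54.8% of regions in the outer parts, a median width of 46.4 kb, 34.4% of regions at 80 kb or more and a median fold of 4.71. With a fold of at least 3 it had 213 regions, a coverage of 4.14%, a highest window of 35.0%, 56.8% in the outer parts, a median width of 51.4 kb, 37.6% wide regions, a median distance of 1021 kb and a longest stretch of 33.0 Mb. Both remove weak peaks by construction. The highest window was 58.2% at 5 Mb, 25.2% at 20 Mb and 34.5% when windows started at 5 Mb. The lower-coordinate part was ahead by 4.01 points with the other split and by 1.04 without the widest region. The outer 5% and 20% held 28.3% and 62.5% of regions. At 50 and 150 kb, 25.6% and 9.61% of regions were wide. Measured by the length that all 3 replicates cover, the median width was 11.4 kb and 13.9% were wide. The median fold was 2.64 with regions of at least 2 replicates, and the median −log10 p was 8.67.

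Leaving out each replicate gave 588 to 691 regions, a coverage of 5.11% to 5.34%, a highest window of 37.2% to 38.5%, a difference between the parts of 0.61 to 0.73 points, 41.8% to 44.4% of regions in the outer parts, a median width of 13.2 to 14.7 kb, 13.9% to 16.0% wide regions, a median fold of 2.62 to 2.88, a median distance of 429 to 497 kb and a longest stretch of 9.34 to 9.35 Mb. Regions then needed 2 lists only, which admits weaker ones. A mean over 3 replicates cannot move by its SD when 1 is left out, so these ranges say nothing of the stability of the coverage, of the highest window or of the difference between the parts.

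7H ranked first of the 7 chromosomes in coverage by peaks under all 7 settings compared. In region density and share of wide regions it was first under all 6. In median width it ranked first in 3 of 6 and second in the other 3. The choice of 7H used the coverage values, and these measures use the same peaks. The first ranks are a description and no added support. Settings that leave out a replicate say nothing of the stability of the coverage. With a width-weighted mean, the fold of 1 of the 24 named regions moved by more than its SD, that of the region from 630643989, to 7.54. In the held-out comparison the p was 0.25 or, with a fold of at least 3, 0.5. No paired analysis was possible because the input libraries, which share the replicate numbers, were not analysed here and a single group remained.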
